A study of Sus scrofa with 6 samples.

Results

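Testis libraries of piglets (Piglet-D30) and mature boars (Adult-D210) held 383 intronic circRNAs of 700 nt or more that shared neither end with another intronic circRNA. They were chosen by a rule that used only the deposited coordinates, type and host gene, but was set with earlier results of these data known. They were 383 of the 1798 intronic circRNAs (21.3%) and of the 4350 circRNAs analysed here. No circRNA of PTBP1 or MOV10L1, whose circRNAs were set aside, met the other conditions, so 0 were left out. All boars were Landrace, with no treatment or genotype named. One library was made from a testis of each of 3 boars aged 30 days and 3 boars aged 210 days, after removal of ribosomal RNA and RNase R digestion of linear RNA. The measure was the number of reads across a back-splice junction, and SRPBM is that count scaled by mapped reads and by the read length of 150 nt. In whole testis, fewer cells of a type and less RNA per cell cannot be told apart.

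Intronic circRNAs, called ciRNAs, form when the lariat that splicing releases from an intron escapes debranching. The lariat joins the first base of the intron to the branch point, which lies a short way before the 3' splice site, and its tail beyond the branch point is trimmed. A ciRNA made in this way therefore begins at the 5' splice site and stops short of the intron's last base. Some ciRNAs stay in the nucleus and promote transcription of their host gene. Piglet testis contains Sertoli and Leydig cells with early germ cells, whereas adult testis carries all stages of spermatogenesis.

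Libraries had 37364412 to 49179118 mapped reads, and a single back-splice read was worth 0.136 to 0.178 SRPBM. Intronic back-splice reads varied more, from 683 in Adult-D210 replicate 3 to 1461 in Piglet-D30 replicate 1. A count of 0 allows up to 3 reads, or 0.407 to 0.535 SRPBM depending on the library, and this covers counting error only, as the reads carried no molecular identifiers. Replicates differed by more than counting noise (chi-square over degrees of freedom 3.87 to 4.97 over all circRNAs). Of the testis marker genes looked up, PIWIL1 (germ cell), STAR and CYP17A1 (Leydig), ACTA2 (myoid) and CD163 (macrophage) were hosts of a circRNA in the table, and CD163 alone hosted a long unshared one, ciRNA432, with 1 read in Piglet-D30 replicate 1. Host names of circRNAs give no measure of the tissue's cell makeup.

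Each of the 383 began at the first base of its annotated intron, as did all 1798 intronic circRNAs. The 482 intronic circRNAs with a shared end all shared the 5' end, and 0 shared only the 3' end. The 383 were therefore the sole intronic circRNAs seen from their 5' splice sites, and 0 of them overlapped another intronic circRNA on the same strand. Their spans ran from 700 to 248658 nt (median 1076 nt), against a median of 324 nt in the 933 short unshared circRNAs, which lie under the limit of 700 nt. Spans under 1000 nt were found for 167 (43.6%), 1000 to under 2000 nt for 178 (46.5%) and 2000 nt or more for 38 (9.92%). The nearest below the limit were ciRNA133 of SLC39A1 (696 nt, 1 read) and ciRNA1641 of ENSSSCG00000028626 (697 nt, 2 reads). Just above it lay ciRNA651 of TPM1 (700 nt, 3 reads) and ciRNA1088 of COPS3 (701 nt, 1 read).

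Most of the long circRNAs filled nearly the whole of their intron. The host introns were 701 to 388231 nt long with a median of 1123 nt, and the median circRNA covered 99.6% of its intron. Among the short unshared circRNAs this was 94.7%, but the percent depends on span, which the selection used, since an equal distance to the intron's end is a smaller part of a longer intron. Only 5 spanned over 10000 nt. The longest was ciRNA845 of PDZD2 on chromosome 16 (18898517 to 19147174, plus strand), with 1 read in Piglet-D30 replicate 2. It covered 64.05% of its intron and ended 139573 nt before the intron's end. It was followed by ciRNA1346 of POFUT1, an enzyme that adds fucose to Notch receptors, at 102114 nt with 1 read, and by ciRNA1064 of ENSSSCG00000021656 at 54764 nt with 1 read. ciRNA246 of METTL24 spanned 23915 nt, had 4 reads, all in Piglet-D30 replicate 1, and ended 37409 nt before its intron's end. ciRNA1310 of CFAP92 spanned 22103 nt and had 1 read in Adult-D210 replicate 1. The widest spans thus rested on 1 library each.

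**Figure D1:**
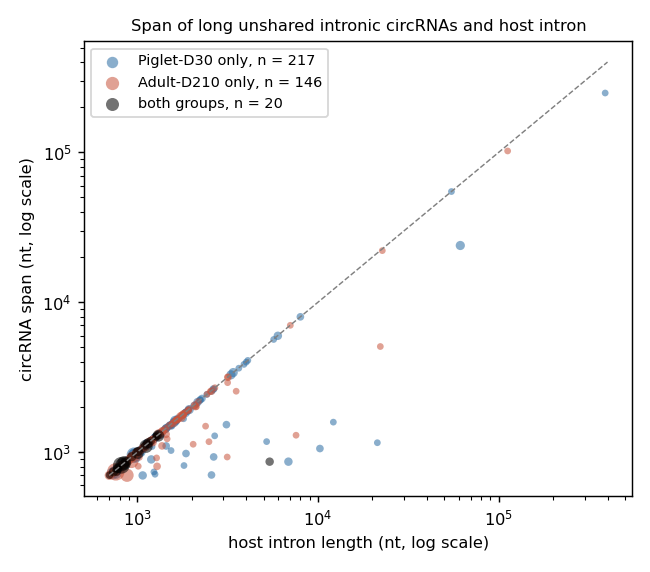
Span of each of the 383 long unshared intronic circRNAs (nt, log scale) against the length of its host intron (nt, log scale), with the point area growing with its reads and the colour giving the groups with a read. Most points lie on the dashed line, where span and intron length are equal, and the 41 that end 100 nt or more before the intron's end fall below it.

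The 3' ends fell into 2 main positions. At the intron's last base ended 135 (35.2%), and a further 58 (15.1%) ended 1 to 4 nt before it. A separate 104 (27.2%) ended 15 to 35 nt before the 3' end of the intron, and 41 (10.7%) ended 100 nt or more before it. One, ciRNA652 of MYO5C, reached 1 nt beyond the annotated intron. Together, 193 of the 383 (50.4%, 95% Wilson interval 45.4 to 55.4) ended 0 to 4 nt before the intron's end, against 331 of the 933 short unshared circRNAs (35.5%, 32.5 to 38.6) and 120 of the 482 with a shared end (24.9%). The position 15 to 35 nt before the end held 36.01% of the short and 52.1% of the shared-end circRNAs. These intervals cover counting error only. CircRNAs that share the first base of an intron must differ at the 3' end. The share ending 0 to 4 nt before the intron's end was therefore partly fixed by the selection in the shared-end set.

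Within each library, a mean of 50.8% ± 12.5 (SD, n = 6 libraries) of the long circRNAs detected ended 0 to 4 nt before the intron's end, against 36.3% ± 5.21 of the short unshared ones. The mean difference was 14.5 percentage points, with the long circRNAs higher in 5 of 6 libraries (exact two-sided sign-flip permutation test over libraries, n = 6, p = 0.0625, adjusted over 2 such comparisons 0.0938). Adult-D210 replicate 1 was the exception, at 30.8% against 32.2%. Weighted by reads the difference was 18.01 percentage points, and with limits of 0 and 10 nt it was 10.8 and 15.4, each with p = 0.0313 by the same exact test, the smallest that 6 libraries allow. This comparison was chosen after the data were seen.

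Span and end position varied together at the upper end of the range. Of the long circRNAs under 1000 nt, 51.5% ended 0 to 4 nt before the intron's end, and of those of 1000 to under 2000 nt 52.8%, whereas 13 of the 38 of 2000 nt or more (34.2%, 21.2 to 50.1) did so. Abundance was alike at both positions, with a mean of 2.06 reads for those that ended within 4 nt and 2.02 reads for those that ended 5 nt or more before the end. Reads in at least 2 libraries were found for 19 of the former (9.84%) and 12 of the latter (6.35%).

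**Figure D2:**
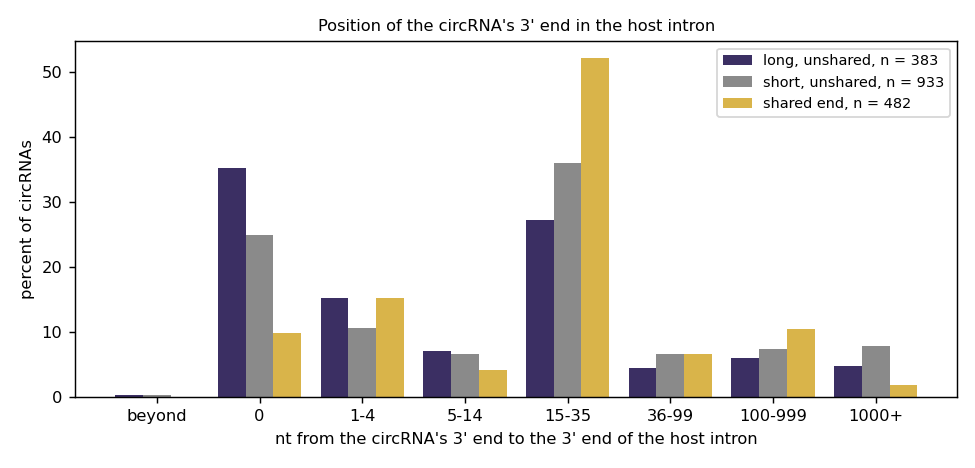
Percent of circRNAs (y axis) by the distance in nt from the circRNA's 3' end to the 3' end of the host intron (x axis), for the 383 long unshared, 933 short unshared and 482 shared-end intronic circRNAs. The long ones peak at 0 nt (35.2%), whereas the shared-end ones peak at 15 to 35 nt (52.1%). The shared-end percents were partly fixed by the selection, since circRNAs that share the first base of an intron must differ at the 3' end.

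Abundance was low. The 383 circRNAs had 780 reads over the 6 libraries, 12.4% of the 6299 intronic reads, and a mean of 2.04 reads each, against 2.42 in the short unshared and 6.77 in the shared-end circRNAs. A shared end needs at least 2 circRNAs detected from the same first base of an intron. The shared-end set is therefore no neutral reference for abundance, recurrence or presence in both groups. A single read was the only support of 218 (56.9%), 95 had 2 reads, 28 had at least 5 and 8 had at least 10. The mean SRPBM over the libraries had a median of 0.0297 and reached 0.530 at most. The most abundant, ciRNA1497 of ORAOV1 with 21 reads, was number 32 among all intronic circRNAs by reads. The 8 circRNAs with at least 10 reads held 111 of the 780 reads (14.2%).

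Few recurred between boars. Reads came from 1 library for 352 (91.9%), 2 libraries for 23, 3 libraries for 7 and 5 libraries for 1, and 0 were seen in all 6. Recurrence in at least 2 libraries was 8.09% (31 of 383, 95% Wilson interval 5.76 to 11.3), against 9.65% (7.91 to 11.7) of the short unshared and 30.1% of the shared-end circRNAs. It was 11.4% under 1000 nt, 6.74% from 1000 to under 2000 nt and 0 of 38 above that, which allows a share of up to 9.18% by the same interval. Any pair of libraries had 1 to 9 of these circRNAs in common. The 9 were shared by Piglet-D30 replicates 1 and 2, and made up 13.4% and 8.91% of the circRNAs detected in each. Piglet-D30 replicate 2 and Adult-D210 replicate 3 came next with 8.

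Reads of one circRNA were often concentrated in one boar. Of the 165 with at least 2 reads, 134 (81.2%) had all of them in a single library, and of the 46 with at least 4 reads, 24 (52.2%) did. ciRNA367 of CHORDC1, an HSP90 co-chaperone, had 8 reads in Piglet-D30 replicate 1 and 0 in the 5 other libraries. ciRNA304 of PFKL, the liver-type phosphofructokinase of glycolysis, had 7 reads, ciRNA269 of SPTAN1, the non-erythroid alpha spectrin, had 6 and ciRNA343 of ELAC2, which trims tRNA 3' ends, had 6, all in that same library. ciRNA751 of PFKFB3, which makes the activator of phosphofructokinase, had 6 reads in Piglet-D30 replicate 2, where ciRNA687 of HERC3 and ciRNA794 of ZNF268 had 5 each. In single adult boars, ciRNA1551 of ST6GALNAC2, a sialyltransferase, had 5 reads in replicate 2, and ciRNA1690 of PPP6R3, a regulatory subunit of protein phosphatase 6, had 5 in replicate 3. Of the 24, 18 were in Piglet-D30 libraries and 6 in Adult-D210 libraries. Of all 352 seen in 1 library, Piglet-D30 replicates 1 to 3 held 53, 83 and 74, and Adult-D210 replicates 1 to 3 held 44, 55 and 43. The split of the 24 was not tested against this.

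With at least 2 reads in the pooled libraries required, the share of a library's detected circRNAs whose reads all fell in that library was 64.4% ± 5.89 (SD, n = 6 libraries) for the long and 56.9% ± 7.96 for the short unshared ones. The difference of 7.54 percentage points, higher in 5 of 6 libraries, did not pass the exact sign-flip permutation test (n = 6, p = 0.0938, the same when adjusted over the 2 comparisons). With at least 3 reads required it was −0.64.

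Comparing the stages, 217 of the 383 (56.7%) were detected in Piglet-D30 only, 146 (38.1%) in Adult-D210 only and 20 (5.22%) in both. The shares were close to those of the short unshared circRNAs (58.0%, 35.8% and 6.22%), whereas 20.5% of the shared-end circRNAs were in both. Because most rested on 1 read, absence from a group was not detectable at this depth for single circRNAs. Of the 31 in at least 2 libraries, 7 (22.6%) were seen in piglets only, 4 (12.9%) in adults only and the other 20 in both. Over all intronic circRNAs in at least 2 libraries, 22.9% were in piglets only and 10.5% in adults only.

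The piglet libraries held more of these circRNAs. Piglet-D30 replicates 1 to 3 had 67, 101 and 84 with a read, and Adult-D210 replicates 1 to 3 had 52, 65 and 55, a mean of 84.0 ± 17.0 (SD, n = 3) against 57.3 ± 6.81. The groups did not overlap, but the nearest libraries differed by 67 to 65 (exact two-sided permutation test, n = 3 and 3, p = 0.1, the smallest p this design allows). Per 1000000 mapped reads, their reads were 3.75, 4.56 and 2.86 in the piglets and 1.93, 2.82 and 2.21 in the adults. The means were 3.72 ± 0.853 and 2.32 ± 0.453 (SD, n = 3 each, exact permutation p = 0.1), and the lowest piglet library lay only just above the highest adult one.

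Relative to the other intronic circRNAs, no change with stage was detectable. The long circRNAs held 9.58%, 15.4% and 12.4% of the intronic reads in the piglets and 8.67%, 14.9% and 15.8% in the adults, or 12.4% ± 2.89 and 13.1% ± 3.90 (SD, n = 3, exact permutation test, p = 0.9). The groups overlapped. Of the intronic circRNAs detected, they were 18.5% ± 3.33 in Piglet-D30 and 18.5% ± 2.16 in Adult-D210 (SD, n = 3, exact permutation p = 0.9). The log2 ratio of their reads to those of the short unshared circRNAs was −1.62 ± 0.54 in Piglet-D30 and −1.36 ± 0.34 in Adult-D210 (SD, n = 3), and this test of a difference in stage change between long and short gave an exact permutation p of 0.6.

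Nor did span or position differ by stage beyond the spread of the libraries. The median span of the circRNAs detected was 1001, 1050 and 1092.5 nt in Piglet-D30 and 1059, 1016 and 1102 nt in Adult-D210 (exact permutation test, n = 3 and 3, p = 0.7). Of the reads, 48.5% ± 7.23 in the piglets and 52.2% ± 14.04 in the adults (SD, n = 3) came from circRNAs that stopped 5 nt or more before the intron's end (exact permutation p = 0.8). Adult-D210 replicate 1 stood highest at 68.4% and Piglet-D30 replicate 2 lowest at 40.2%. Over the 7 measures compared, the smallest Benjamini-Hochberg adjusted value of the exact permutation tests was 0.35.

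**Figure D3:**
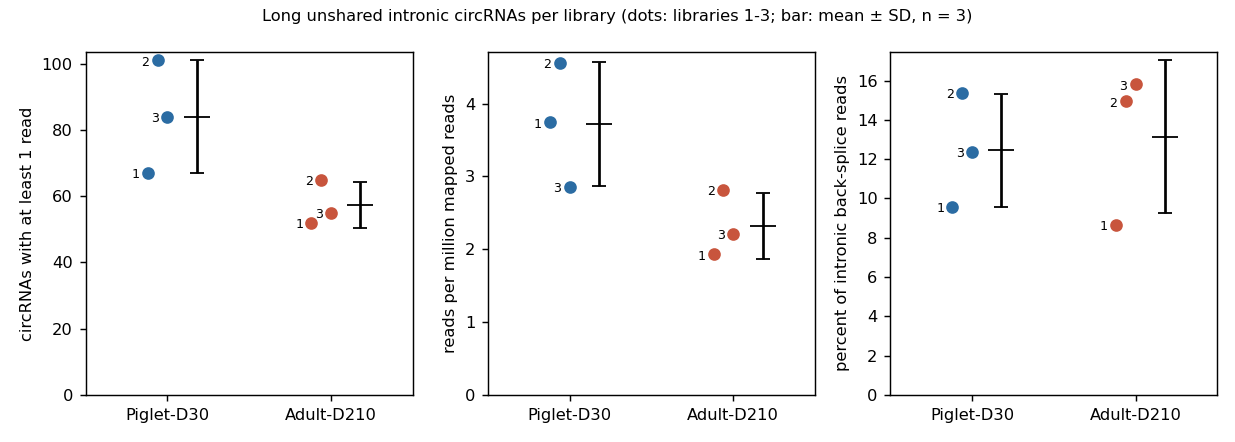
For each library, the number of long unshared intronic circRNAs with at least 1 read, their reads per 1000000 mapped reads, and their percent of the intronic back-splice reads (y axes) by group (x axis), with dots numbered by replicate and bars for the mean ± SD (n = 3). The piglet dots lie above the adult dots in the first and second plots, by 67 to 65 circRNAs and 2.86 to 2.82 reads at the nearest, and the groups overlap in the third.

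For single circRNAs, edgeR's quasi-likelihood test was run on the 1341 circRNAs with at least 10 reads, scaled by mapped reads. A call needed an adjusted p-value under 0.05 together with at least a 2-fold difference, and 77 (5.74%) met both, 9 (0.671%) higher and 68 (5.07%) lower in Adult-D210. With TMM on the totals of the table this split was 46 higher and 65 lower. Among the 71 intronic circRNAs tested 1 was called (1.41%). Only 8 of the 383 long unshared circRNAs had enough reads to be tested, and 0 of the 8 were called, in either direction. At an unadjusted p-value under 0.05 there were 3 of the 8, against 26.0% of all those tested. All 3 were among the 4 of the 8 with 0 reads in one whole group. These 4 reached the 10 reads needed through the other group alone, so this count was partly fixed by the filter. DESeq2 called 0, with 1 at an unadjusted p under 0.05, and edgeR's exact test called 0, with 2. The quasi-likelihood test also called 0 under each of the other scalings and in its older form, with 4 each. Under a replicate block it called 0, with 1. The 8 parted into 4 higher and 4 lower in Adult-D210, with a median log2 fold change of −0.05, against −0.90 over all 1341. With the same TMM scaling, these medians were 0.42 and −0.42. The directions and medians of the 8 include the 4 that passed the filter through 1 group alone. The 375 other circRNAs were too sparse for the test, and when all were entered without a filter, 0 of the 383 were called, against 2.09% of the 4350. Exonic circRNAs, most of those tested, all have a read in Piglet-D30 replicate 1. The shares, directions and medians over all 1341 or 4350 are therefore no neutral reference for intronic ones.

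The circRNAs seen in Adult-D210 alone were led by ciRNA1497 of ORAOV1, a factor in the maturation of an iron-sulfur protein needed for ribosome production. It lies on chromosome 2 from 2095983 to 2096722 on the minus strand, spans 740 nt and stops 22 nt before the end of its intron. The 3 piglet libraries had 0 reads and the adult libraries 0, 11 and 10, or 1.06 ± 0.944 SRPBM (SD, n = 3) in the adults. Both high libraries were adult, but the third adult library was at 0 like the piglets, so the groups overlapped. Its adult mean was 2.19 times the level of 3 reads per piglet library, a ratio that leaves out the spread of the adult libraries. With 0 piglet reads, it reached the 10 reads needed for the test through the adults alone. Its adjusted p-value by edgeR's quasi-likelihood test was 0.131, and it ranged from 0.0595 to 0.281 over the alternatives.

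ciRNA1382 of MED15, a tail subunit of the Mediator complex that links activators to RNA polymerase II, lies on chromosome 14 from 54269261 to 54270131 on the minus strand. It had 5, 0 and 7 reads in the adults and 0 in the 3 piglet libraries. ciRNA1339 of ENSSSCG00000009530 on chromosome 11 (78366899 to 78367600, minus strand) had 0 reads in the piglets and 5, 6 and 0 in the adults. A different adult library was at 0 for each of these. Their adult means were 0.545 ± 0.492 and 0.556 ± 0.506 SRPBM (SD, n = 3). These means were 1.12 and 1.15 times the level of 3 reads per piglet library, with the spread of the adult libraries again left out. Both circRNAs reached 10 reads through the adults alone. By edgeR's quasi-likelihood test the adjusted p-values were 0.184 and 0.199. They stopped 60 and 177 nt before the intron's end.

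In the other direction, ciRNA422 of PSAP had 2, 11 and 1 reads in the piglets and 0 in each adult library. PSAP encodes prosaposin, the precursor of the saposins that help degrade sphingolipids in lysosomes. The circRNA is the whole intron of 961 nt on chromosome 14 (80637197 to 80638157, minus strand). It was at 0.730 ± 0.829 SRPBM (SD, n = 3) in Piglet-D30. This mean was 1.67 times the level of 3 reads per adult library, with the spread of the piglet libraries left out. The circRNA reached 10 reads through the piglets alone. It was detected in all 3 piglets, yet 11 of its 14 reads came from replicate 2 (edgeR quasi-likelihood, adjusted p = 0.141, and 0.131 to 0.327 over the alternatives). Of the 46 circRNAs with at least 4 reads, 2 further ones had a read in every library of one group and none in the other. These were ciRNA105 of the zinc finger gene ZNF740 (6, 1 and 1 reads in Piglet-D30) and ciRNA102 of NCKAP5L (1, 2 and 2 reads in Piglet-D30), and both had too few reads for the test. The share of all intronic circRNAs that met this rule was not counted, so the number is no result about the set.

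The other 4 tested circRNAs had reads in both groups. The most recurrent, ciRNA262 of ENSSSCG00000005480, was the whole intron of 818 nt on chromosome 1 (284915658 to 284916475, plus strand). The piglet libraries had 1, 8 and 3 reads and the adult libraries 0, 3 and 4, or 0.621 ± 0.540 and 0.347 ± 0.302 SRPBM (SD, n = 3). On the log2 scale Adult-D210 differed by −0.88 with a standard error of 1.14 (edgeR quasi-likelihood, adjusted p = 0.651), and without Piglet-D30 replicate 2 it was 0.04. For ciRNA298 of EIF4A2, an RNA helicase of translation initiation, the piglet libraries had 5, 4 and 0 reads and the adult libraries 0, 2 and 0. Here the log2 difference was −2.12 with a standard error of 1.61 (edgeR quasi-likelihood, adjusted p = 0.420). ciRNA169 of TMEM131 had 5, 2 and 0 reads in the piglets and 4, 0 and 0 in the adults (log2 fold change −0.92, standard error 1.56). ciRNA802 of FBXO21, a substrate receptor of a ubiquitin ligase, had 0, 4 and 0 reads in the piglets and 0, 0 and 8 in the adults (log2 fold change 0.79, standard error 1.68). In all 4 the groups overlapped, and for 3 of them the standard error was larger than the fold change.

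Of the circRNAs with 5 to 8 reads, several others spread over both stages. ciRNA529 of TEX52, a testis-expressed gene, had 0, 3 and 0 reads in the piglets and 0, 3 and 2 in the adults. ciRNA384 of LAMB3, a laminin chain of basement membranes, had 6 reads in Adult-D210 replicate 1 and 2 in Piglet-D30 replicate 1. ciRNA1036 of ADD1, which links spectrin to actin, and ciRNA1116 of DLAT, a subunit of pyruvate dehydrogenase, had 2 reads each in Piglet-D30 replicate 3 and 3 reads each in 1 adult library. ciRNA352 of LARP4B, an RNA-binding protein, had 3 reads in Piglet-D30 replicate 1 and 2 in Adult-D210 replicate 2. In the adults alone, ciRNA1289 of PRRC2B had 3 and 2 reads in replicates 1 and 2. In the piglets alone, ciRNA606 of ENSSSCG00000013671 had 3 and 2 reads in replicates 2 and 3, and ciRNA181 of ADI1, of methionine salvage, had 5 in replicate 1.

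**Figure D4:**
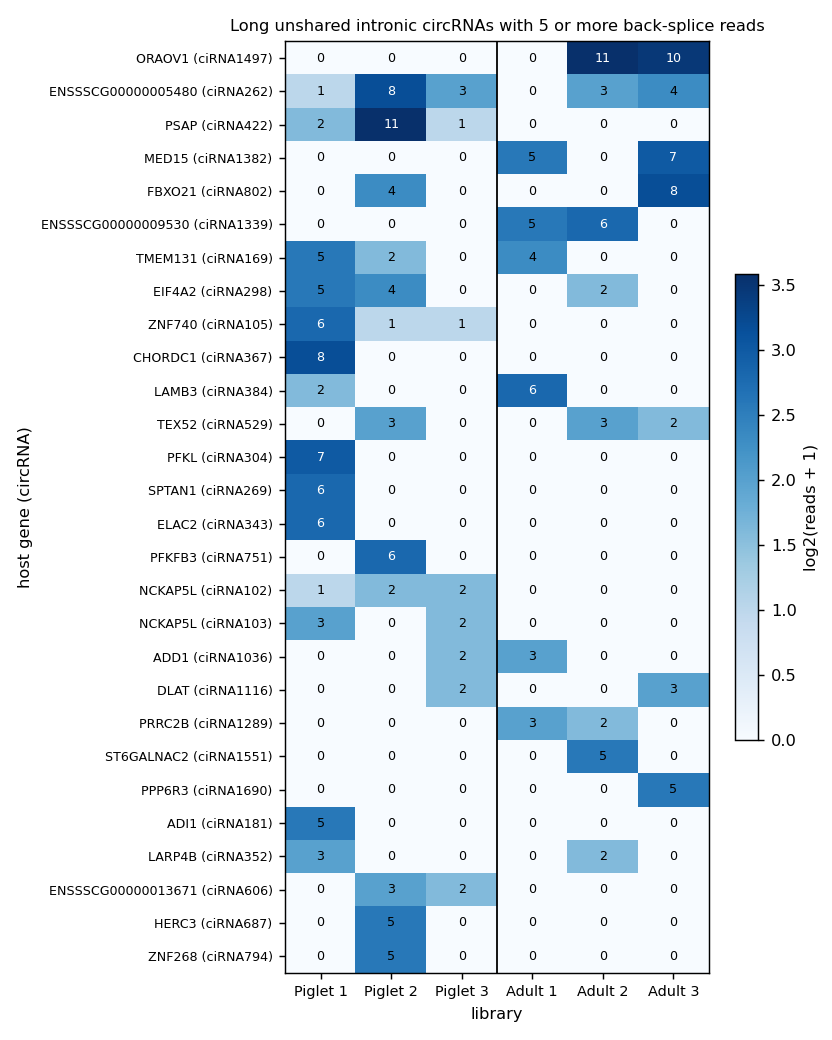
Back-splice reads of the 28 long unshared intronic circRNAs with at least 5 reads (rows, host gene with circRNA name) in each of the 6 libraries (columns), with the number in each cell and the shade giving log2(reads + 1). No row is filled in all 6 libraries, and the row filled in the most, ciRNA262, has 5.

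In all, 364 listed hosts gave rise to the 383 circRNAs, 345 to 1 each and 19 to 2. LONP1 was listed as 2 of these hosts, with 2 circRNAs under each (below). NCKAP5L was the one host with 2 circRNAs of at least 5 reads, ciRNA102 (above) and ciRNA103, which had 3, 0 and 2 reads in Piglet-D30, and both had 0 reads in every adult library. TMEM41B, listed by identifier and needed for autophagosome formation, had ciRNA362 with 3 reads in Piglet-D30 replicate 1 and 1 in Adult-D210 replicate 1, and ciRNA758 with 4 in Piglet-D30 replicate 2. TPM1, an actin-binding tropomyosin, had ciRNA651 with 3 reads in Piglet-D30 replicate 2 and ciRNA1015 with 1 in Piglet-D30 replicate 3 and 2 in Adult-D210 replicate 2. JAG1, a Notch ligand, had ciRNA753 and ciRNA1102 with 4 and 1 reads, all in piglets. For IGF2R, which clears insulin-like growth factor 2, ciRNA244 and ciRNA645 had 2 reads each in different piglets. Another intronic circRNA, short or with a shared end, came from the same host for 73 of the 383 (19.1%).

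Host genes were grouped by 11 lists of testis and housekeeping functions, which held 48 of the 383 circRNAs, and 335 fell in none. No long unshared circRNA came from the germ cell and meiosis list or from the list for Leydig cells and steroid synthesis, which held 3 and 10 of all intronic circRNAs. The piRNA pathway had 1, ciRNA39 of TDRD9, a helicase that silences transposons in the male germ line, with 2 reads in Piglet-D30 replicate 1. The Sertoli list had 1, ciRNA1133 of the transcription factor GATA4, with 1 read in Piglet-D30 replicate 3. The immune list had 1, the circRNA of CD163 given above. The median was 1 read over all 383, and it was 1 to 2 in each list with a circRNA.

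The chromatin list held the most, 14 circRNAs of 14 hosts with 19 reads (3.66% of the 383, against 3.34% of all intronic circRNAs). Reads were in Adult-D210 only for 9 of them, in Piglet-D30 only for 4 and in both for 1, where over all 383 the shares were 38.1%, 56.7% and 5.22%. This difference was not tested. Those with 2 reads were ciRNA1202 of PRDM16, ciRNA1584 of EP400, ciRNA1586 of the H3K4 methyltransferase gene SETD1B and ciRNA1620 of the demethylase gene PHF8, each in 1 adult library, and ciRNA222 of KDM4B with 1 read at each stage. Hosts with 1 read included EP300 and SMARCA4, both in piglets. The adult libraries had 14 and the piglet libraries 5 of the 19 reads, with 0 of the 14 circRNAs tested.

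The actin and myosin list had 10 circRNAs of 9 hosts with 19 reads, 15 of them in Piglet-D30, and 7 of the 10 were seen in Piglet-D30 only, where 56.7% of all 383 were and 463 of their 780 reads came from Piglet-D30. Here ciRNA269 of SPTAN1, with its 6 reads in a single library, weighed most. The translation list had 6 circRNAs with 20 reads, of which 15 were in Piglet-D30. ciRNA298 of EIF4A2 made up 11 of these reads, and other hosts included RPL6 and EIF4G2 (2 reads each) and RPL11 and RPL5 (1 each). Both lists are small, and 1 circRNA set much of the count in each.

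Splicing factors and RNA-binding proteins hosted 8 circRNAs with 12 reads, 6 in each group. They were 2.09% of the 383 and 4.73% of all intronic circRNAs. The latter count the shared-end circRNAs, with at least 2 for each host, and the difference was not tested. None had more than 2 reads, as in ciRNA50 of the spliceosomal helicase DHX38, ciRNA572 of LUC7L and ciRNA1060 of MBNL1 in piglets and ciRNA1447 of PCBP2 in adults. HNRNPK had 2, ciRNA1760 and ciRNA1761, with 1 read each in Adult-D210 replicate 3. The cilium and sperm tail list had 4 circRNAs with 6 reads, 3 in each group, led by ciRNA1249 of IFT172, of intraflagellar transport, with 2 reads in Adult-D210 replicate 1 and ciRNA804 of TTC28 with 2 in Piglet-D30 replicate 2. The list for matrix, peritubular cells and vessels had 3, from LAMB3 (8 reads), ITGAV (1) and COL4A2 (1).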

How the data were processed

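Testis RNA of 3 Piglet-D30 and 3 Adult-D210 boars was sequenced, 1 library per boar by the paper's design, and samples were grouped by their titles. The authors mapped trimmed reads with TopHat2 to the pig genome (Sscrofa 10.2 per the labels) and found junction reads with TopHat-Fusion and CIRCExplorer2. They deposited raw counts of back-splice reads, without normalization, and SRPBM, a signal scaled by mapped reads and read length, from which the mapped reads were recovered. The exonic circRNAs of the table all have a read in Piglet-D30 replicate 1, so mapped reads, not the totals of the table, served as library size. The members and gene lists were chosen with earlier results of these data known.

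Circular RNAs with at least 10 reads were tested with edgeR 4.0.16 in R 4.3.3 (robust quasi-likelihood fit without TMM, Benjamini-Hochberg adjustment over all 1341). The code was tested on simulated data in which 200 circRNAs, drawn from the most abundant ones only, differed by 2 or 3 on the log2 scale. Of these, 72 of 193 tested (37.3%) were called, as were 2 unchanged ones. The share called does not carry over to sparser circRNAs. Values per library were compared by exact two-sided permutation tests (SciPy 1.17.1, Python 3.11.15). DESeq2 1.42.0, other scalings, filters, limits of span, a replicate block and each library left out were alternatives. Of 92 hosts listed by Ensembl identifier, 56 were named from a table of identifiers and symbols, and 36 stay as identifiers. Distances refer to the intron listed with each circRNA. Named circRNAs were those with at least 10 reads, the 20 with most reads, those in at least 5 libraries or in all of one group only, the 5 longest, those nearest the span limit, up to 3 per list, and hosts with the most, and any others were chosen after their values were seen. Sequences of these circRNAs were not analysed here. Some hosts of the lists are not reported here.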

Additional observations from a re-analysis of the deposited data

How the results depend on the processing

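The number of long unshared circRNAs called stayed at 0 in all fits. Over all circRNAs, 77 were called, and 46 with a replicate block, 1 with intronic circRNAs only and TMM on them, and 0 to 73 with 1 library left out (0 without Adult-D210 replicate 1, 4 and 7 without replicates 2 and 3, 41 without Piglet-D30 replicate 3). The numbers are not known to pair boars (correlations of same-numbered libraries 0.03, −0.01 and −0.04), and the block called 0 long unshared circRNAs. Leaving out each library kept detected circRNAs lower in Adult-D210 (by −35.2 to −18.2 per library) and reads per 1000000 mapped reads too (−1.83 to −0.98). The small stage differences changed sign. For the share of intronic reads (0.69 percentage points) the values were −0.0758 and −0.221 with limits of 600 and 1000 nt, −0.27 without the most abundant circRNA and −0.74 to 2.93 with 1 library left out. The share of detected circRNAs (0.08) gave −0.0573 with 600 nt and −1.81 to 1.34. The log2 ratio to short circRNAs (0.26) gave −0.0377 to 0.490, and median span (11.2 nt) gave −12.3 to 33.5 nt, and −6.50 nt for the host intron's length. The share stopping before the intron's end (3.70) gave −4.23 with 1000 nt, −0.19 without the most abundant circRNA, −1.72 with each circRNA counted once and −4.40 to 8.06. For ends within 4 nt, long against short, the difference was 18.01 by reads, 10.8 and 15.4 with limits of 0 and 10 nt, and 11.4 to 17.7 with 1 library left out. Its sign also held against short circRNAs of other hosts only. Reads confined to 1 library gave −0.64 with 3 reads required and 5.34 to 9.92. Recurrence with 2 reads per library was 4.44%. The log2 fold change of ciRNA262 ranged from −1.43 to 0.0377. The cause of these changes was not tested. Depth limits single circRNAs, as 240 of 424 detections rest on 1 read.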

Other observations

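On the 4 chromosomes for which exonic circRNAs were analysed, 28 of the 92 long unshared circRNAs (30.4%) came from a host that also had an exonic circRNA with a read in Piglet-D30 replicate 1, against 20.1% of the short unshared and 11.2% of the shared-end circRNAs. The 28 circRNAs had 56 reads and their hosts had 5218 exonic reads. In EIF4A2 these were 11 intronic against 63 exonic reads, in the oligosaccharyltransferase gene STT3B 2 against 871 and in the Fanconi anaemia gene FANCD2 1 against 888. FASN, the fatty acid synthase gene, was the single host with fewer exonic reads (1) than intronic ones (2).

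Chromosome 14 held the most long unshared circRNAs, 40 (10.4%, against 8.06% of all intronic circRNAs), and chromosome 2 held 33 (8.62%, against 13.0%). The reference again counts the shared-end circRNAs, and these differences were not tested.

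LONP1, a mitochondrial protease gene, was listed under its name (ciRNA611 and ciRNA612) and under an identifier (ciRNA613 and ciRNA1507). ciRNA611 had 4 reads in Piglet-D30 replicate 2 and ciRNA1507 had 1 in Adult-D210 replicate 2. The other pair, ciRNA612 and ciRNA613, both spanned 1409 nt, ended 1 nt before their intron's end and had 1 read each in Piglet-D30 replicate 2. They nevertheless lie at 73793672 and 73979490 on chromosome 2. Reads of near-identical copies cannot be told apart here, and neither circRNA was counted as recurrent.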
